A study of Mus musculus with 4 samples.

Results

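The transcripts of 9 TGF-beta pathway genes were compared between wild-type and TNFR2 KO Ly49H+ NK cells. They comprised the receptors Tgfbr1, Tgfbr2 and Tgfbr3, the signal transducers Smad2, Smad3 and Smad4, the inhibitory Smad7, and the SMAD corepressors Ski and Skil. Genes were taken by symbol from the 35798 genes named in the count table, and all 9 were present. Bulk RNA came from 4 libraries of NK cells sorted from spleen at day 3.5 of infection with murine cytomegalovirus (MCMV), 2 of each genotype. Wild-type cells carried the CD45.1 allele and TNFR2 KO cells, which lack TNF receptor 2, the CD45.2 allele. Cells of both genotypes were transferred together into the same NSG mice, which were infected a day later. Per the labels, same-numbered libraries of both genotypes came from 1 pool of spleens of 3 mice. The comparison addressed which transcripts depend on TNFR2 in NK cells that carry Ly49H, the receptor for a viral protein of MCMV.

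The genotype went together with the CD45 allele and with the sort gate, so that their effects cannot be told apart. NSG mice lack T, B and NK cells of their own but keep myeloid cells, and their NOD background carries the CD45.1 allele. The duplicates came from 1 experiment. The paper describes a pooled sample of spleens from 3 infected mice, and the sources do not say whether the pools held different mice. The p-values therefore measure only the spread between these libraries, which may be technical. Changes given below for the first and second pool compare same-numbered libraries and may not be independent. There was no uninfected group.

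TGF-beta is secreted in a latent form, and once released it binds the type II receptor Tgfbr2, which recruits and phosphorylates the type I receptor Tgfbr1. Tgfbr1 then phosphorylates Smad2 and Smad3, which join Smad4 and enter the nucleus to regulate genes. Smad7 is induced by the pathway and blocks the receptors, whereas Ski and Skil (SnoN) hold SMAD complexes in a repressed state. In NK cells, TGF-beta is known to restrain activation and effector function and to favor features of tissue-resident innate lymphocytes (ILC1).

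Library sizes ran from 32713256 to 39543650 counts. CPM values below were scaled by TMM, which divides counts by the library size and a factor that assumes most genes do not differ. Tnfrsf1b, which encodes TNFR2, was at 264.7 and 268.6 CPM in wild-type and at 55.1 and 58.6 CPM in TNFR2 KO libraries (log2-fold change -2.23, SE 0.0356), so that both KO libraries still held reads of the gene. NK lineage markers held 0.913% to 0.916% of wild-type counts and 1.28% of TNFR2 KO counts, and 31 of 34 were higher in TNFR2 KO. Markers of myeloid cells were present in the sorted cells, more so in wild-type. The macrophage or monocyte list held 0.280% to 0.283% of wild-type counts and 0.0361% of TNFR2 KO counts, with 22 of the 22 markers tested lower and a median log2-fold change of -2.98. Neutrophil markers fell from between 0.105% and 0.107% to between 0.00982% and 0.0102% of counts (14 of 14 lower), mast cell or basophil markers from between 0.127% and 0.128% to between 0.00265% and 0.00277% (9 of 9), and dendritic cell or class II markers from between 0.176% and 0.180% to between 0.0147% and 0.0148% (6 of 10 tested). Erythroid markers (0.0286% to 0.0291% of wild-type and 0.00566% to 0.00606% of TNFR2 KO counts, 10 of 10 lower) and megakaryocyte markers (0.00395% to 0.00423% and 0.000389% to 0.000498%, 6 of 7 tested) were lower as well. Lyz2, a lysozyme of myeloid cells, fell from 774.6 to 112.2 CPM, and Nkg7, a granule protein of NK cells, rose from 788.5 to 1331 CPM under TMM. Treml1, of platelets, had 0 counts in both TNFR2 KO libraries, and Pdpn, a stromal gene, had 0 in every library. T cell markers held 0.139% to 0.140% of wild-type and 0.124% to 0.128% of TNFR2 KO counts, with 6 of 11 lower and 2 higher. Of 8 B cell markers, 2 had enough counts to be tested, and Pax5 had 1 count in a single library. Stromal or endothelial markers held 0.0116% to 0.0123% of wild-type and 0.0133% to 0.0135% of TNFR2 KO counts, a higher share in TNFR2 KO. Of the 8 tested, 5 were lower and 1 higher, with a median log2-fold change of -1.51, and 7 were under 1 CPM in TNFR2 KO. The part of all these cell types in the results below was not tested.

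**Figure D1:**
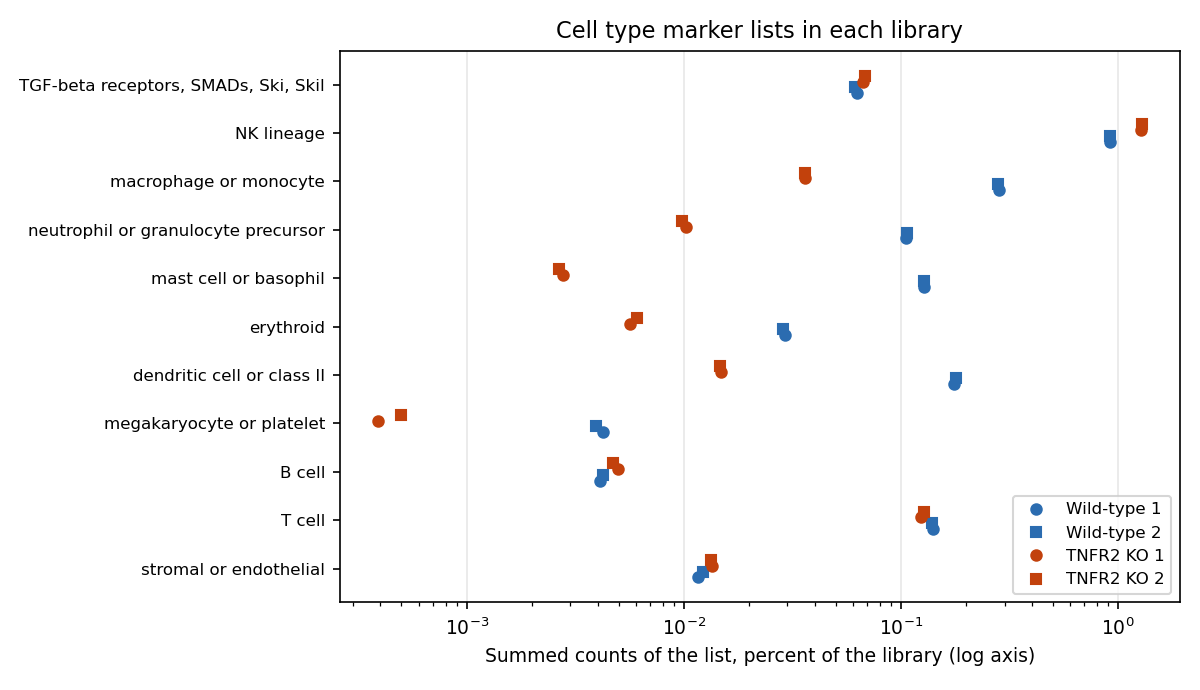
Summed counts of each cell type marker list and of the 9 TGF-beta pathway genes as a percent of the library, on a log axis, with 1 symbol per library (circles replicate 1, squares replicate 2). Myeloid, mast cell, erythroid and megakaryocyte lists sat lower in both TNFR2 KO libraries and the NK lineage list sat higher, while the 9 genes together held 0.0616% to 0.0630% of wild-type and 0.0668% to 0.0685% of TNFR2 KO counts.

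All 9 genes were expressed, from about 2 CPM for Tgfbr3 in TNFR2 KO to 206.4 CPM for Tgfbr2, and all passed the filter on low counts. A gene was called where edgeR's quasi-likelihood test gave an adjusted p below 0.05, with Benjamini-Hochberg adjustment over the 13822 genes tested. Under TMM scaling Tgfbr1 and Tgfbr3 were lower in the bulk TNFR2 KO libraries and Tgfbr2, Smad3 and Smad7 were higher. Scaling on the NK lineage genes turned the sign of the 3 higher ones. The remaining 4, Smad2, Smad4, Ski and Skil, were not called. Duplicates were so alike that 50.4% of all genes tested were called, 26.2% lower and 24.2% higher, and the counts of 2 lower and 3 higher of 9 are to be read against those shares. With the replicate block, a term for the pool of spleens, 5 of the 9 and 51.3% of all genes were called, and DESeq2 called 5 of the 9 and 39.2% of all genes. Past an absolute log2-fold change of 1, a limit that the study used, 13.3% of all genes were called (11.8% lower and 1.56% higher), and Tgfbr3 was the single pathway gene of the 9 (lower). At a limit of 0.5, which took in 21.2% of all genes (15.8% lower and 5.45% higher), it was again the single one. In 7 of the 9 genes the TNFR2 KO and wild-type values did not overlap, as in 74.0% of all genes, with TNFR2 KO above in 5 (36.4% of all genes) and below in 2 (37.7%). The median log2-fold change of the 9 genes was 0.10, compared with -0.003 for all genes tested.

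**Figure D2:**
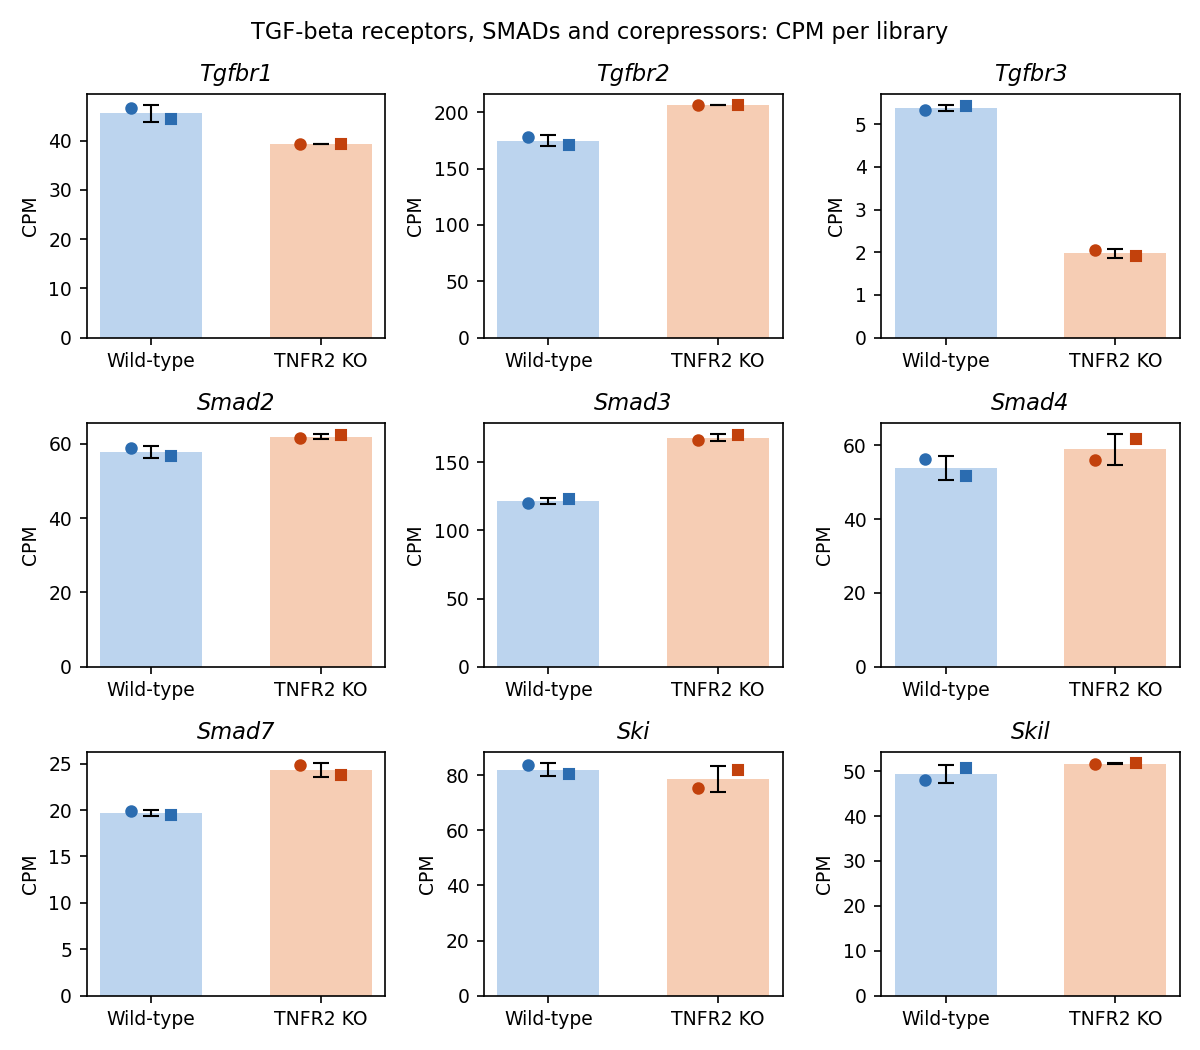
TMM-scaled CPM of the 9 genes, with a bar for the mean of each genotype, an error bar for the SD (n = 2) and 1 symbol per library (circles replicate 1, squares replicate 2). The separation is widest for Tgfbr3, at 5.33 and 5.43 CPM in wild-type and 2.04 and 1.90 CPM in TNFR2 KO, and values overlap for Smad4 and Ski.

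Tgfbr2, the type II receptor that binds the ligand and starts the signal, lies on the minus strand of chromosome 9 (chr9:116084293-116175360, GRCm38). Its level was 178.3 and 171.2 CPM in wild-type and 206.4 and 206.3 CPM in TNFR2 KO. Both TNFR2 KO libraries were above both wild-type libraries. Means were 174.8 ± 4.99 CPM and 206.3 ± 0.0607 CPM (SD, n = 2). Tgfbr2 rose with a log2-fold change of 0.24 (SE 0.0298, 95% interval 0.17 to 0.30, adjusted p = 2.81e-05 from edgeR), although the sign turned to -0.31 with NK lineage scaling. The change was 0.21 in the first pool of spleens and 0.27 in the second.

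Tgfbr1, the type I receptor kinase that phosphorylates Smad2 and Smad3, lies on the plus strand of chromosome 4 (chr4:47353222-47414931). It was at 46.7 and 44.3 CPM in wild-type and at 39.2 CPM in both TNFR2 KO libraries. The groups did not overlap, and TNFR2 KO was the lower one. Tgfbr1 fell from 45.5 ± 1.70 CPM to 39.2 ± 0.00555 CPM (SD, n = 2), a log2-fold change of -0.21 (SE 0.0495, 95% interval -0.32 to -0.11, adjusted p = 0.00335 from edgeR). Within pools it was -0.25 and -0.18, and with NK lineage scaling -0.76. The receptor pair therefore moved in opposite directions under TMM, and both fell under NK lineage scaling.

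Tgfbr3, or betaglycan, is a co-receptor with a short cytoplasmic tail that presents ligand to Tgfbr2. It lies on the minus strand of chromosome 5 (chr5:107106570-107289629). It was the least abundant of the 9, with 202 and 200 counts in wild-type and 79 and 61 counts in TNFR2 KO, or 5.33 and 5.43 CPM against 2.04 and 1.90 CPM. Both wild-type libraries were far above both TNFR2 KO libraries. The mean fell from 5.38 ± 0.0699 CPM to 1.97 ± 0.0978 CPM (SD, n = 2), 2.72-fold lower, with a log2-fold change of -1.44 (SE 0.170, 95% interval -1.81 to -1.07, adjusted p = 1.72e-05 from edgeR). It was -1.38 and -1.51 in the separate pools and -1.99 with NK lineage scaling. In the same libraries the macrophage or monocyte list fell 7.81-fold in its share of counts and the dendritic cell or class II list 12.1-fold, and their part in the change of Tgfbr3 was not tested. In bulk RNA, fewer cells of a type and less RNA per cell cannot be told apart. Of the 31-base stretches in Tgfbr3 transcripts, 4.13% were also found in the gene model Gm43422, so that some of its reads could have been split between them.

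Smad3, a receptor-activated SMAD that binds DNA directly, lies on the minus strand of chromosome 9 (chr9:63646767-63757994). It was at 120.0 and 123.1 CPM in wild-type and at 166.1 and 169.9 CPM in TNFR2 KO. The lowest TNFR2 KO library was well above the highest wild-type library. The mean rose from 121.6 ± 2.19 CPM to 168.0 ± 2.64 CPM (SD, n = 2), 1.38-fold, with a log2-fold change of 0.47 (SE 0.0313, 95% interval 0.40 to 0.53, adjusted p = 9.72e-08 from edgeR), whereas NK lineage scaling gave -0.08 (adjusted p = 0.0318). Both pools gave the same size, 0.47 and 0.46. It had the smallest adjusted p of the 9 genes in edgeR's test.

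Smad2, the other SMAD that Tgfbr1 phosphorylates, lies on the plus strand of chromosome 18 (chr18:76241580-76310963). Its level was 59.0 and 56.8 CPM in wild-type and 61.6 and 62.5 CPM in TNFR2 KO. TNFR2 KO values were above wild-type values, but close to them. The log2-fold change was 0.10 (SE 0.0422, 95% interval 0.01 to 0.19) and missed the threshold after adjustment (adjusted p = 0.0727 from edgeR), and it was -0.45 with NK lineage scaling. The interval covers a difference of up to 0.19 and so does not show that Smad2 was alike in both genotypes.

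Smad4, the common partner of the activated SMADs, lies on the minus strand of chromosome 18 (chr18:73639009-73703780). It was at 56.2 and 51.6 CPM in wild-type and at 56.0 and 61.9 CPM in TNFR2 KO. The groups overlapped, with replicate 1 of both genotypes at nearly the same level. The log2-fold change was 0.12 (SE 0.0571, 95% interval 0.0002 to 0.25, adjusted p = 0.0893 from edgeR). It was -0.01 in the first pool and 0.26 in the second. Smad4 was called without wild-type replicate 1 (0.20, adjusted p = 0.0184), without TNFR2 KO replicate 1 (0.21, adjusted p = 0.00139) and with no filter on low counts (0.13, adjusted p = 0.0193), and it was at -0.42 with NK lineage scaling.

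Smad7, the inhibitory SMAD that recruits ubiquitin ligases to the receptors and is itself a target gene of the pathway, lies on the plus strand of chromosome 18 (chr18:75367529-75395935). It was at 19.9 and 19.4 CPM in wild-type and at 24.8 and 23.8 CPM in TNFR2 KO. Both TNFR2 KO libraries were above both wild-type libraries. The mean rose from 19.7 ± 0.343 CPM to 24.3 ± 0.727 CPM (SD, n = 2), a log2-fold change of 0.31 (SE 0.0630, 95% interval 0.17 to 0.44, adjusted p = 0.00151 from edgeR), with -0.24 under NK lineage scaling. The pools gave 0.32 and 0.29.

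Ski and Skil, related corepressors that recruit histone deacetylases to SMAD complexes, did not pass the test. Ski, on the minus strand of chromosome 4 (chr4:155154075-155222592), was at 83.7 and 80.3 CPM in wild-type and at 75.4 and 82.0 CPM in TNFR2 KO. Its groups overlapped, and TNFR2 KO replicate 1 was the lowest library. The log2-fold change was -0.06 (SE 0.0454, 95% interval -0.16 to 0.04, adjusted p = 0.291 from edgeR). It was -0.15 in the first pool and 0.03 in the second. Without TNFR2 KO replicate 1 it was 0.01, and without TNFR2 KO replicate 2 it was -0.12 and was called (adjusted p = 0.0465). Ski was also called lower with library size alone (-0.12, adjusted p = 0.0434) and with NK lineage scaling (-0.61). Skil, on the plus strand of chromosome 3 (chr3:31095058-31122577), was at 48.0 and 50.8 CPM in wild-type and at 51.6 and 51.8 CPM in TNFR2 KO. The 4 libraries lay close together, with both TNFR2 KO libraries just above the wild-type ones. The log2-fold change was 0.07 (SE 0.0468, 95% interval -0.04 to 0.17, adjusted p = 0.267 from edgeR) and was -0.48 with NK lineage scaling.

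The direction of the smaller changes depended on what the libraries were scaled on. When the libraries were instead scaled on the summed counts of the 34 NK lineage genes, the median over all genes moved to a log2-fold change of -0.55, and 80.2% of all genes were then called lower and 2.34% higher. All 9 pathway genes were negative on that scale and called lower. Relative to the median of all genes the changes were the same under both scalings, since a change of scaling shifts all genes alike. These changes were 0.47 for Smad3, 0.31 for Smad7, 0.24 for Tgfbr2, -0.21 for Tgfbr1 and -1.44 for Tgfbr3. Library size alone moved the median of all genes to -0.06. Only Tgfbr1, Tgfbr3 and Ski were negative under all of TMM, library size alone and NK lineage scaling, and of these Ski was not called under TMM.

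**Figure D3:**
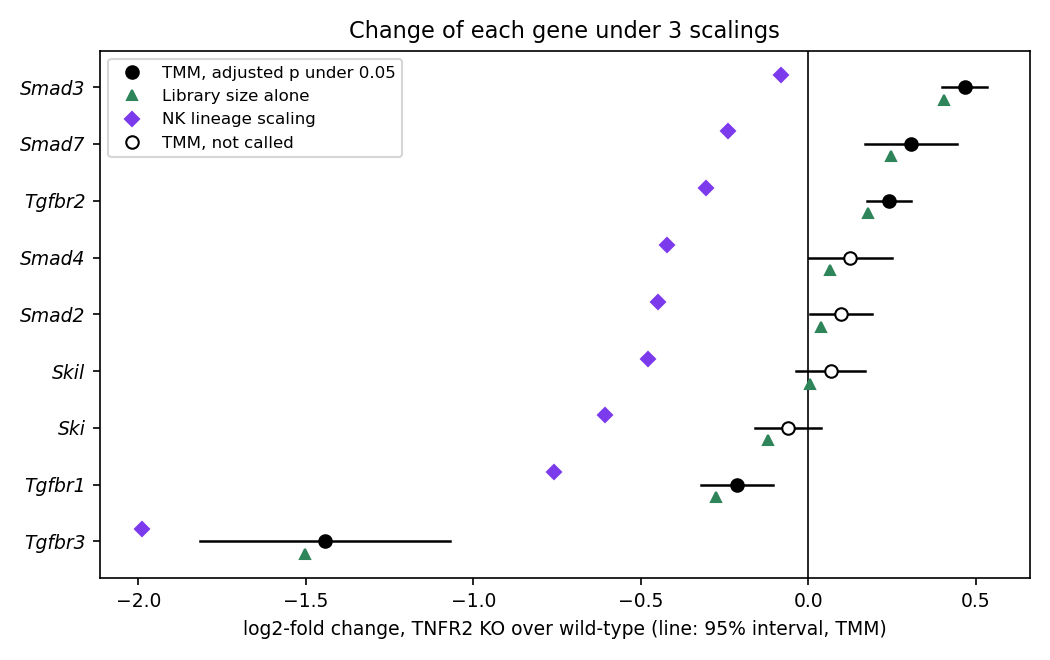
Log2-fold change (TNFR2 KO over wild-type) of the 9 genes under TMM (circles with 95% intervals, filled where edgeR called the gene), library size alone (triangles) and NK lineage scaling (diamonds). Diamonds lie left of 0 for all 9 genes. The order of the genes is the same under the 3 scalings, since a change of scaling shifts all genes alike.

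Ratios of 2 transcripts within a library cannot be changed by scaling between libraries, and 6 pairs were compared. With 2 libraries against 2, a two-sided exact permutation test cannot give a p under 0.33, so that these values are descriptions. The mix of cell types in a library can still change such ratios, and its part in them was not tested. The ratio of Tgfbr2 to Tgfbr1 transcripts differed between the bulk libraries of the genotypes. There were 3.82 and 3.87 Tgfbr2 counts for each Tgfbr1 count in the wild-type libraries and 5.26 in both TNFR2 KO libraries. The log2 ratio was 1.93 and 1.95 in wild-type and 2.39 in both TNFR2 KO libraries, 0.45 higher in TNFR2 KO, with a tiny spread in each group. Betaglycan relative to the type II receptor (Tgfbr3 to Tgfbr2) was at log2 ratios of -5.07 and -4.98 in wild-type and -6.66 and -6.76 in TNFR2 KO, a difference of -1.69. These groups were also far apart.

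Among the SMADs, each ratio to Smad3 was lower in TNFR2 KO. Smad2 to Smad3 was at -1.02 and -1.12 in wild-type and -1.43 and -1.44 in TNFR2 KO (log2 ratio, difference -0.37), and Smad4 to Smad3 was at -1.09 and -1.25 in wild-type and -1.57 and -1.46 in TNFR2 KO (difference -0.34). Smad7 to Smad3, the inhibitory against the activating transcript, was at -2.59 and -2.66 in wild-type and -2.74 and -2.83 in TNFR2 KO (difference -0.16), with the smallest difference of the 5 pairs that did not overlap. These 3 ratios share Smad3 and are not independent. Skil to Ski overlapped, with -0.80 and -0.66 in wild-type and -0.55 and -0.66 in TNFR2 KO (difference 0.13, exact permutation p = 0.667). The other 5 pairs reached the smallest p that the test allows.

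**Figure D4:**
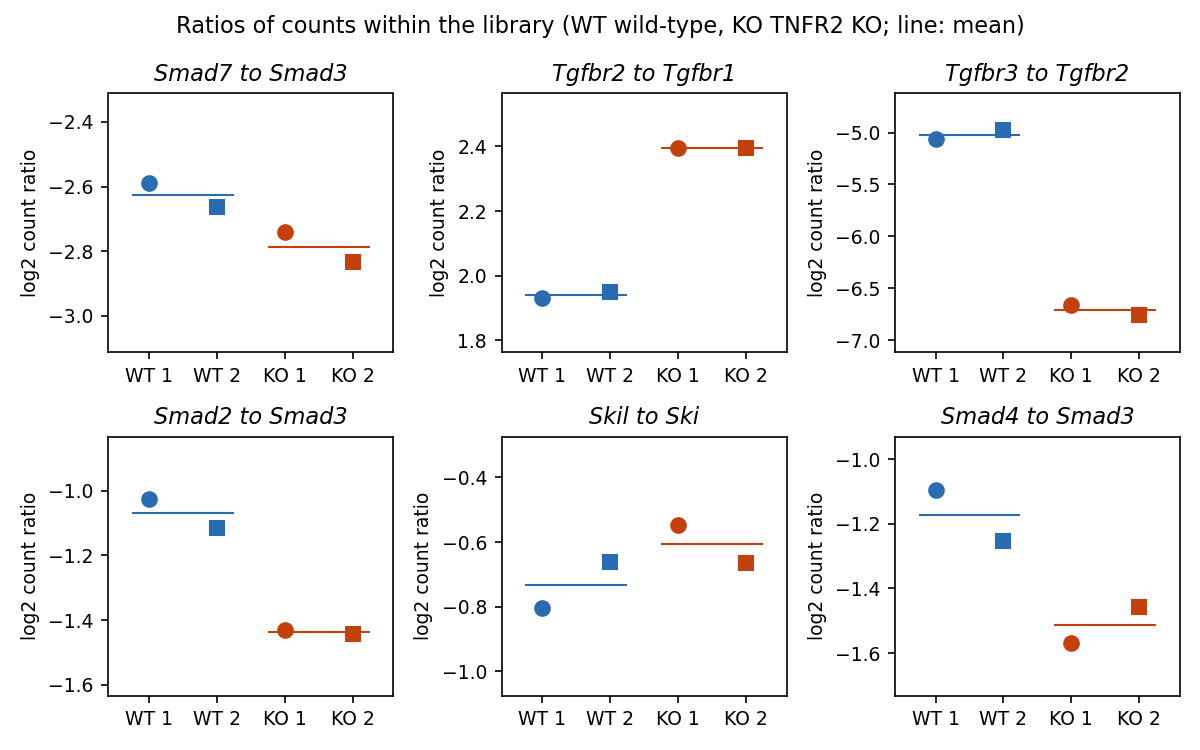
Log2 ratio of the counts of 2 genes in the same library, for 6 pairs, with 1 symbol per library and a line at the mean of each genotype. The genotypes are separate in 5 pairs and overlap for Skil to Ski, and the Tgfbr2 to Tgfbr1 ratio is near 1.94 in wild-type and 2.39 in TNFR2 KO.

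Levels of different genes were compared per length, as TMM-scaled CPM per kilobase of the union of a gene's exons (GENCODE M21). Smad3 and Tgfbr2 were the most abundant. In wild-type they were at 21.9 ± 0.395 and 21.3 ± 0.609 CPM per kilobase (SD, n = 2), and their libraries overlapped. In TNFR2 KO Smad3 was at 30.3 ± 0.477 and Tgfbr2 at 25.2 ± 0.00742 CPM per kilobase, and their libraries did not overlap. Ski (14.7 in wild-type and 14.1 in TNFR2 KO) and Smad4 (14.5 and 15.9) came next, and these 2 neighbors overlapped in wild-type. Tgfbr1 (6.96 and 6.01), Smad2 (6.59 and 7.06), Skil (5.09 and 5.33) and Smad7 (4.36 and 5.38) followed, and Skil and Smad7 overlapped in TNFR2 KO. Tgfbr3 was lowest at 0.821 and 0.301 CPM per kilobase. With the longest transcript as the length, Smad3, Tgfbr2 and Tgfbr3 kept the first, second and last places, and several of the others exchanged places.

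Promoters were taken from RefSeq (GRCm38.p6) as the 250 bases upstream of the transcript start, and 4 of the 9 genes had such a window (Tgfbr1, with 2 starts, Tgfbr2, Smad3 and Ski). Those of the 3 genes that passed the test are shown for their SMAD-binding core, with CAGAC in capitals where a script found it. They are read 5′ to 3′ on the strand of the gene, Tgfbr2 from chr9:116175364-116175613 (minus strand), Smad3 from chr9:63757995-63758244 (minus strand) and Tgfbr1 from chr4:47352972-47353221 and, within the gene, chr4:47385966-47386215 (plus strand).
Tgfbr2: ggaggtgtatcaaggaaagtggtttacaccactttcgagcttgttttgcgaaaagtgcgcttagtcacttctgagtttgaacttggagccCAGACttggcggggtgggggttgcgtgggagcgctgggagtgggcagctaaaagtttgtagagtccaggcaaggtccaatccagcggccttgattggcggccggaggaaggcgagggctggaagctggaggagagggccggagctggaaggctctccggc
Smad3: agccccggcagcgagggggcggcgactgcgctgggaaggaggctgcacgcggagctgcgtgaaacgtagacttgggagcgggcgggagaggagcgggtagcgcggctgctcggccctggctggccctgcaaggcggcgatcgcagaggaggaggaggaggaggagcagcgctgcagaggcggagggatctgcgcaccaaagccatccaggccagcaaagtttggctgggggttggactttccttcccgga
Tgfbr1, first window: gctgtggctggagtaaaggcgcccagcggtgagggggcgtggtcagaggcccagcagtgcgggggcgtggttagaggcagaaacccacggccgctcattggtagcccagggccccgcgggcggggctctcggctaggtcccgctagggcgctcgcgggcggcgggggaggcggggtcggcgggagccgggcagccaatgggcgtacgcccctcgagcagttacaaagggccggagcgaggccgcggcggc
Tgfbr1, second window: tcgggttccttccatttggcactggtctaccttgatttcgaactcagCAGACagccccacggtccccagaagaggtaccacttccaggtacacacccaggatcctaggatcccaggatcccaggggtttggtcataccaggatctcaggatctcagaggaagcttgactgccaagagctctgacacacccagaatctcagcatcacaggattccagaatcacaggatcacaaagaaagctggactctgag
CAGAC was present once in the window of Tgfbr2 and once in the second window of Tgfbr1, and was not found on either strand in the windows of Smad3 or Ski or in the first window of Tgfbr1. It is a short motif, found on either strand in 42.2% of all 32851 windows of this length. Neither GTCTAGAC (0.167% of windows), a palindrome that shares the letters AGAC with the core, nor the kappaB consensus (7.25%) was found in any window of these 4 genes. GC content was 58.4% for Tgfbr2, 69.2% for Smad3, 74.8% for the first and 52.8% for the second window of Tgfbr1 and 87.6% for Ski, compared with a median of 52.4% over all windows. A match is a description of the letters and not of binding.

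The wider pathway was described with 130 genes in 9 lists, of which 102 had enough counts to be tested. Of these, 37 were lower in TNFR2 KO, 29 were higher and 36 were not called in edgeR's test under TMM, and 21 of the lower and 3 of the higher ones passed a log2-fold change of 1, whereas NK lineage scaling gave 86 lower and 6 higher. Among all genes tested under TMM, 26.2% were lower and 24.2% higher, and 11.8% were lower and 1.56% higher past 1, and the counts of each list below are to be read against these shares. The median over the 102 genes was -0.03, close to that of all genes. Of the 21 lower genes past 1, 5 were ligands, 4 took part in latency and activation, 7 were other receptors of the superfamily, 2 were regulators and 3 were general response genes. The higher ones past 1 were Ltbp3, Ltbp4 and S1pr5.

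Of the ligands, 11 of 24 were tested, with 6 lower and 2 higher (26.2% and 24.2% of all genes). Without wild-type replicate 2, 3 ligands were lower. Tgfb1, by far the most abundant, fell from 313.2 to 268.0 CPM (log2-fold change -0.23). The higher ones under TMM were Gdf11, a ligand related to myostatin, at 27.0 and 40.7 CPM (0.59, and 0.05 and not called with NK lineage scaling) and Tgfb3 (0.31, and -0.23 with NK lineage scaling). Bmp4 had 33 counts over the wild-type libraries and 0 in both TNFR2 KO libraries, at least 10.4-fold lower against a floor of 3 counts over the group. Gdf15, a stress-induced ligand, fell from 2.32 to 0.192 CPM (-3.54). Bmp2 (-3.22) and Inhba (-2.07), the latter a subunit of activin, had group means under 1 CPM, and neither call held without 1 of the libraries. Bmp2 was at -2.16 when TNFR2 KO replicate 1 was left out, and Inhba at -1.15 when wild-type replicate 2 was left out, and DESeq2 did not call Bmp2.

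The genes for latency and activation split, with 6 of the 9 tested lower and 3 higher. Furin, the protease that cleaves the TGF-beta precursor, fell from 809.4 to 526.8 CPM (-0.62), and Nrros, which tethers latent TGF-beta on myeloid cells, from 138.7 to 101.1 CPM (-0.46). Mmp14, a membrane metalloproteinase, fell from 59.3 to 2.84 CPM (-4.37), and the matrix genes Thbs1 (-2.79), Fbn1 (-2.65) and Ltbp1 (-1.91) fell as well. Ltbp3 (1.15) and Ltbp4 (1.77), which bind latent TGF-beta, rose under both TMM and NK lineage scaling, and Itgav, an integrin subunit that takes part in activation, rose by 0.49 under TMM but was at -0.05 with NK lineage scaling.

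None of the other receptors of the superfamily was called higher. All 9 that were tested had negative log2-fold changes, 7 were called and all 7 passed 1, with a median of -1.30. Bmpr2, the type II receptor for BMPs, fell from 17.2 to 7.90 CPM (-1.12), and Acvr1b, a type I receptor for activin, from 13.8 to 5.60 CPM (-1.30). Acvrl1 (ALK1) fell from 9.93 to 1.30 CPM (-2.91) and Eng (endoglin), a co-receptor related to Tgfbr3, from 13.9 to 2.99 CPM (-2.22). Rgmb (-2.51), a BMP co-receptor, and Bmpr1a (-1.53) fell too. Of the other SMADs, Smad1, which transduces BMP signals, fell from 12.4 to 7.60 CPM (-0.71), and Smad5 was at 31.5 and 30.8 CPM (-0.03, not called). Smad6 and Smad9 had at most 3 counts in any library and were not tested.

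Of the 20 regulators of receptors and SMADs, 5 were lower, 5 higher and 10 not called under TMM, close to the shares of all genes (26.2% lower and 24.2% higher). Without wild-type replicate 1, 3 were lower, and without TNFR2 KO replicate 2, 3 were higher. The lower ones were Dab2 (2.80 to 0.244 CPM, -3.52), an endocytic adaptor, Zfyve9 (SARA, 6.43 to 0.860 CPM, -2.86), which presents SMADs to the receptor, and with small changes the ubiquitin ligase Nedd4l (-0.46), the deubiquitinase Usp15 (-0.13) and Strap (-0.10). The higher ones under TMM, all with a negative sign under NK lineage scaling, were the ubiquitin ligases Smurf1 (0.32), Smurf2 (0.17) and Rnf111 (0.16), the deubiquitinase Usp11 (0.31) and Tgfbrap1 (0.19). Leaving out 1 library ended 5 of these calls. Without wild-type replicate 1 Strap was at -0.07 and Usp15 at -0.08, without TNFR2 KO replicate 1 Strap was at -0.06, Usp15 at -0.07 and Rnf111 at 0.11, and without TNFR2 KO replicate 2 Smurf2 was at 0.14 and Usp11 at 0.17. DESeq2 did not call Strap, Usp15, Smurf2 or Rnf111, and library size alone ended the calls of Smurf2 and Rnf111. Fkbp1a, which keeps Tgfbr1 inactive, was at 152.7 and 150.4 CPM (-0.02, not called).

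Of the SMAD cofactors, 15 of 16 were tested, with 4 lower, 5 higher and a median of 0.04. The lower ones included the corepressors Tgif1 (-0.56) and Tgif2 (-0.56) and the kinase Hipk2 (-0.45). The higher ones under TMM, with a negative sign under NK lineage scaling, were Ncor1 (0.14), Hdac1 (0.12), the acetyltransferases Ep300 (0.14) and Crebbp (0.16), and Runx3 (0.17). The calls of Tgif2 (-0.44 without wild-type replicate 1), Crebbp (0.10 without TNFR2 KO replicate 1) and Ep300 (0.09 without TNFR2 KO replicate 2) ended with 1 library left out, and DESeq2 did not call Tgif2 or Crebbp. Library size alone ended the calls of Hdac1 (0.06), Ep300 (0.08) and Crebbp (0.10). In the TGF-beta activated kinase branch, 2 of 9 were higher under TMM (24.2% of all genes) and none was lower. These were Rhoa (0.11) and the adaptor Shc1 (0.18), with -0.44 and -0.36 under NK lineage scaling. The call of Rhoa ended with library size alone (0.05, adjusted p = 0.146 in edgeR), and Tab2 was at 0.06 (not called).

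Genes known to respond to TGF-beta in many cell types gave 4 lower and 3 higher of 9 tested. Tgfbi, a matrix protein, fell from 160.7 to 18.4 CPM (-3.13) and Id1 from 3.11 to 0.241 CPM (-3.68), and the cell cycle inhibitor Cdkn1a fell with a smaller change (-0.79). Id2, a transcriptional regulator required for NK cells, rose from 498.7 to 689.9 CPM (0.47), Junb from 435.5 to 517.3 CPM (0.25) and Cdkn1b by 0.21 under TMM, but all 3 had a negative sign under NK lineage scaling.

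Genes that respond to TGF-beta in NK cells or mark ILC1 had a median of 0.35 under TMM, with 9 of 18 higher and 4 lower, whereas NK lineage scaling gave 4 higher and 13 lower. Of all genes, 24.2% were higher and 26.2% lower under TMM, and 2.34% higher and 80.2% lower under NK lineage scaling. The list holds both markers of ILC1 and genes of conventional NK cells, so that its median and counts give no direction of response. The 4 lower ones under TMM were Cd200r1 (-0.70), Ahr (-0.55), Nt5e (-0.46) and Cxcr6 (-0.20). Eomes, the T-box factor of conventional NK cells, rose from 219.9 to 355.0 CPM (0.69), Klrg1, an inhibitory receptor of mature NK cells, from 285.3 to 488.9 CPM (0.78), and S1pr5, a receptor for exit from tissue, from 49.3 to 103.4 CPM (1.07). Itga1 (CD49a), a marker of ILC1, also rose, from 38.3 to 70.6 CPM (0.88). These 4 were also higher with NK lineage scaling, at 0.14, 0.23, 0.52 and 0.33. The other higher ones under TMM were Tbx21 (0.47), Klf2 (0.44), Prdm1 (0.38), Entpd1 (0.36) and Xcl1 (0.34). Itgae (0.65), Ctla4 (0.12), Cd69 (0.003), Tnfsf10 (-0.08) and Zfp683 (-0.11) were not called. The NK lineage list as a whole had a median of 0.62 under TMM.

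**Figure D5:**
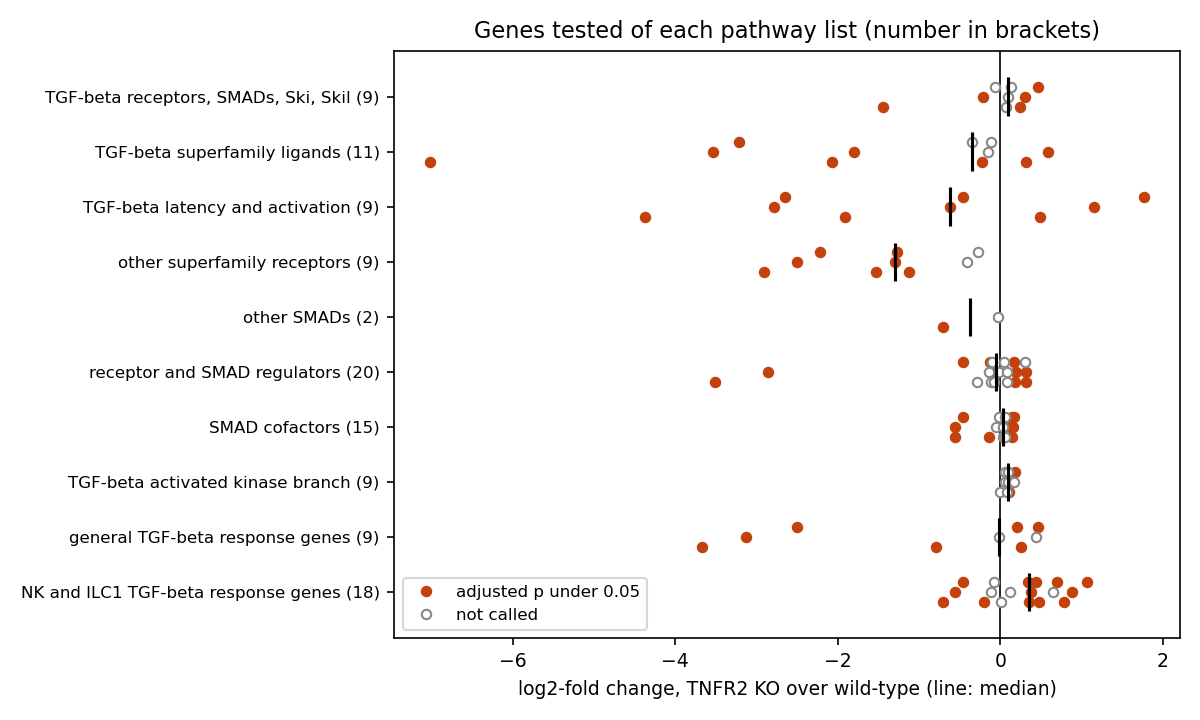
Log2-fold change (TNFR2 KO over wild-type, TMM scaling) of every tested gene of the 9 TGF-beta receptors, SMADs and corepressors and of the 9 other pathway lists, with filled symbols for genes that edgeR called and a line at each list's median. The other superfamily receptors all lie left of 0, with a median of -1.30, while the medians of the cofactors (0.04) and of the kinase branch (0.09) lie close to 0. With NK lineage scaling, which puts the median of all genes at -0.55, 6 genes of the 9 other lists are called higher, compared with 29 under TMM.

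Among 1806 tested genes outside the lists with a mean CPM within 2 times that of Tgfbr3, the 5 whose centred log2 levels over the 4 libraries were nearest to those of Tgfbr3 were Trbv1 (Euclidean distance 0.0510), Stab2 (0.0640), Prss57 (0.0661), Or2y1 (0.0827) and Map3k20 (0.0926). Their log2-fold changes ran from -1.49 for Map3k20 to -1.37 for Prss57, around the -1.44 of Tgfbr3. This closeness follows from how the genes were picked.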

How the data were processed

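Ly49H+ NK cells were sorted from pooled spleens, and poly-A selected, stranded libraries were sequenced as paired-end reads. Per the labels and the study's methods, the authors trimmed reads with Trimmomatic 1.4, assigned them to mm10 transcripts with kallisto 0.46.1, summed them per gene with Tximport and deposited these estimated counts (expected counts) without scaling. Their annotation: not given in the sources used here. Kallisto can divide reads between genes that share sequence. A row with no gene name (0.056% of wild-type and 0.072% to 0.073% of TNFR2 KO counts) was removed.

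Estimated counts were rounded, filtered with filterByExpr (13822 genes kept), scaled by TMM and fitted by genotype with edgeR 4.0.16 (R 4.3.3), with the prior count left at 0.125. The steps were tested on simulated data. The members and lists were chosen with earlier results of these data known. Named were the 9 genes, Tnfrsf1b, the 2 most abundant genes of each pathway list, up to 4 called genes of each with the largest change past 1, and 5 genes nearest to Tgfbr3 in log2(CPM + 0.5). In each marker list the 2 most abundant genes were picked, and Lyz2 and Nkg7 are given. Ltbp3, Ltbp4, Itgav, Tgfb3, Nedd4l, Usp15, Smurf1, Smurf2, Rnf111, Usp11, Tgfbrap1, Tgif1, Tgif2, Hipk2, Ep300, Crebbp, Runx3, Shc1, Cdkn1a, Cdkn1b, Ahr, Cd200r1, Cxcr6, Nt5e, Itga1, Smad6 and Smad9 were named after their values were seen, as were Pax5, Treml1 and Pdpn. The same holds for Tbx21, Klf2, Prdm1, Entpd1, Xcl1, Itgae, Ctla4, Cd69, Tnfsf10 and Zfp683, which complete their list. Gene positions, lengths and shared 31-base stretches came from GENCODE M21 on GRCm38, which stands in for the authors' annotation. Duplicates differed by more than counting noise (mean chi-square per gene 3.29 for wild-type and 3.49 for TNFR2 KO), with a biological coefficient of variation of 3.33%. Totals were 32713256 to 39543650 counts. Replicate numbers pair the samples, since the labels tie each number to 1 pool of spleens, while deviations of same-numbered libraries had a correlation of 0.049. Alternatives were DESeq2 1.42.0 size factors and test, upper-quartile, library size and NK lineage scaling, other filters, the replicate block and leaving out each library. Some genes of the lists are not reported here by name. Plots used matplotlib 3.10.9.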

Additional observations from a re-analysis of the deposited data

How the results depend on the processing

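The fit with the replicate block called 51.3% of all genes and 5 of the 9 receptors, SMADs and corepressors. Pairing the samples changed no call among the 106 values and counts examined, with for example -1.44 for Tgfbr3. DESeq2's size factors changed none of them either, and DESeq2's test called 5 of the 9 and 39.2% of all genes. DESeq2's test lost the calls of 8 pathway genes named singly, among them Bmp2 and Strap.

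Library size alone called Ski lower (-0.12, adjusted p = 0.0434 in edgeR), put Tab2 at -0.0037 and ended the calls of Hdac1, Rhoa, Smurf2, Rnf111, Ep300 and Crebbp. NK lineage scaling called Ski lower (-0.61) and turned the sign of Tgfbr2 (-0.31), Smad2 (-0.45), Smad3 (-0.081), Smad4 (-0.42), Smad7 (-0.24) and Skil (-0.48), so that 9 of the 9 genes were called lower and 0 higher, where TMM gave 3 higher. It gave 86 lower and 6 higher pathway genes, and turned Ncor1 (-0.41), Hdac1 (-0.43), Rhoa (-0.44), Tab2 (-0.49), Id2 (-0.078), Junb (-0.30), Itgav (-0.054), Tgfb3 (-0.23), Smurf1 (-0.23), Smurf2 (-0.37), Rnf111 (-0.38), Usp11 (-0.23), Tgfbrap1 (-0.35), Ep300 (-0.41), Crebbp (-0.39), Runx3 (-0.38), Shc1 (-0.36) and Cdkn1b (-0.34). NK lineage scaling lowered every value by a like amount, and whether it or TMM suits these libraries better was not tested. With no filter Smad4 was called (0.13, adjusted p = 0.0193 in edgeR). A filter at a mean of 10 CPM left Tgfbr3 untested, so that 1 of the 9 was called lower and 19 pathway genes were.

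With each library left out in turn, where the lone library of a genotype is assumed to vary like the other genotype, log2-fold changes ran from -1.49 to -1.39 for Tgfbr3, -0.24 to -0.17 for Tgfbr1, 0.22 to 0.28 for Tgfbr2, 0.46 to 0.49 for Smad3, 0.28 to 0.34 for Smad7, 0.08 to 0.13 for Smad2, 0.059 to 0.21 for Smad4, -0.12 to 0.0099 for Ski and 0.03 to 0.12 for Skil. Of the 9, 2 to 3 were called lower and 3 to 4 higher, and of the pathway genes 32 to 38 lower and 26 to 29 higher. Without wild-type replicate 1 Smad5 was at 0.077 (range -0.12 to 0.077). Differences of log2 ratios ran from 0.44 to 0.46 for Tgfbr2 to Tgfbr1, -1.74 to -1.64 for Tgfbr3 to Tgfbr2, -0.41 to -0.32 for Smad2 to Smad3, -0.42 to -0.26 for Smad4 to Smad3, -0.21 to -0.11 for Smad7 to Smad3 and 0.06 to 0.20 for Skil to Ski. With the longest transcript as gene length, the rank of Tgfbr1 in TNFR2 KO was 7, Smad2 was 7 in wild-type and 6 in TNFR2 KO, Smad4 was 3 and Ski 4 in wild-type, Smad7 was 8 in TNFR2 KO, and Skil was 6 in wild-type and 5 in TNFR2 KO. Depth limited Tgfbr3 most, since it rested on 61 to 202 counts per library.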
